A study of Mus musculus with 12 samples.

Results

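DNA methylation changes were examined at 32175 autosomal regions that were already heavily modified in control mouse retina and rose further when all 3 Tet genes were deleted. The regions were taken from the authors' list of differentially methylated regions by whole genome bisulfite sequencing (WGBS), and each was chosen by 2 values of that list: a mean level of at least 80% in Cre- retina and a higher mean level in Tet tcKO retina. They were 32175 of 193836 listed regions, and of 188451 autosomal regions with a higher level in Tet tcKO. Of the 190763 autosomal regions in the list, 98.8% were higher in Tet tcKO, so the direction of change that the choice asks for was the direction of nearly the whole list. Because both levels were used for the choice, the levels and rises at these regions are described without a test.

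The samples were whole retinas of C57 BL/6J mice at postnatal day 21. In Tet tcKO animals, Tet1 loxp/loxp, Tet2 loxp/loxp and Tet3 loxp/loxp were recombined by a Chx10-Cre-GFP transgene, which acts in retinal progenitor cells. Per the study's methods, these mice were bred to carry it in both copies, which limits mosaic recombination. The Cre- controls carry the genotype label WT. They were matched in age and bred from parents without Cre. Microglia and blood vessels of the whole retina do not arise from these progenitors. Per the study, retinas were pooled across animals for extraction, and both assays used DNA of the same extractions. Each genotype had 3 libraries for WGBS and 3 for bACE-seq, 12 in all, but the region lists give 1 mean per genotype. No spread between libraries, read depth or p-value of this re-analysis could therefore be attached to any level, and differences are reported as values only. In whole tissue, a level at a region averages over cells, so a change in all cells and a change in the proportion of cell types cannot be told apart.

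Cytosines in CpG dinucleotides are methylated to 5-methylcytosine (5mC) by DNA methyltransferases, and the TET enzymes oxidize 5mC to 5-hydroxymethylcytosine (5hmC) and on to bases that repair enzymes replace with unmodified cytosine. Neurons hold much more 5hmC than most dividing cells, largely over gene bodies and enhancers. Bisulfite sequencing reads 5mC and 5hmC alike as modified, whereas bACE-seq reads 5hmC alone. A region that stands near full modification by WGBS can therefore still hold a sizeable share of 5hmC, and an exchange of 5hmC for 5mC leaves no trace in WGBS.

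The sequences of a few regions show the range of DNA that met the choice. All are from the mm10 assembly (GRCm38), plus strand, in lower case with every CpG in capitals, and each stretch runs to the G of the region's last CpG. First are 2 regions among the 5 with the largest WGBS rise, at chr7:85721775-85721912 in intergenic DNA near Vmn2r72, a vomeronasal receptor gene, and at chr16:26322548-26322734 in intergenic DNA near Cldn1, which encodes a tight junction protein.
near Vmn2r72: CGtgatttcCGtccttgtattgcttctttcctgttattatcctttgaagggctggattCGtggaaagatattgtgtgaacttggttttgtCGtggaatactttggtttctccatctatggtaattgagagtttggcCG
near Cldn1: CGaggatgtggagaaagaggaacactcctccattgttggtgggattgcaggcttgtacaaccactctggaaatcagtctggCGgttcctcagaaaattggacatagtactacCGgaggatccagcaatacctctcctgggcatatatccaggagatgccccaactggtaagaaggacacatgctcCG

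Both sequences were fully soft-masked as repeats in the assembly. The middle 50 bases of the regions occurred 1267 and 7365 times in the assembled chromosomes, counting exact matches on both strands. The read depth behind their WGBS levels was not analysed here. Neither overlapped a bACE-seq region.

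The next set shows regions with much 5hmC in Cre- retina, at chr19:7476783-7476868 in an intron of Rtn3, which encodes a reticulon of the endoplasmic reticulum, and at chr9:58587790-58587891 in an intron of Nptn, which encodes the cell adhesion protein neuroplastin.
Rtn3: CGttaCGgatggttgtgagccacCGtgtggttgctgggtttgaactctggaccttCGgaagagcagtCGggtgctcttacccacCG
Nptn: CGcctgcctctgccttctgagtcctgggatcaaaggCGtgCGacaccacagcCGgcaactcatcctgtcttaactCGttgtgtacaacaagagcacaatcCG

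These short stretches held 6 CpGs each. The Rtn3 stretch was 100% soft-masked and the Nptn stretch 50.5%, yet the middle 50 bases of either region occurred 1 time in the chromosomes. Soft-masking of the Rtn3 region thus went without identical copies of its middle bases.

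The last sequence is the middle 200 bases, chr9:21795057-21795256, of the region with the largest area statistic (the authors' test statistic summed over the CpGs of a region), which lay over a coding exon of Kank2, the gene of an actin-regulating scaffold protein. It was chosen for print after its values were seen.
Kank2: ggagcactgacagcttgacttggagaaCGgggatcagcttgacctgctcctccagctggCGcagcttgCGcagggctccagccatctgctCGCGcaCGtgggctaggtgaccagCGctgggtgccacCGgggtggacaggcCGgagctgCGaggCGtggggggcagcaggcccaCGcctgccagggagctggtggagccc

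The 200 bases held 12 CpGs and no soft-masked base. The whole region, chr9:21794657-21795658, held 67 CpGs in 1002 bases, or 6.69 CpGs per 100 bases, with a GC content of 66.7%.

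Across the 32175 regions, the WGBS level in Cre- had a median of 84.2% and reached 96.2%. In Tet tcKO the median was 93.2%, and 29471 regions (91.6%) stood at 90% or more and 7171 (22.3%) at 95% or more. The median rise was 8.43 percentage points, with 80% of regions between 5.64 and 11.3 points and a largest rise of 18.4. A region that starts at 80% or more cannot rise by more than 20 points. Set against the room that was left, the rise took up a median of 55.1% of the unmodified share, and 22485 regions (69.9%) lost at least 50% of it. At the other end, 64 regions rose by under 2 points, and in 21 the authors' area statistic had the sign of a loss.

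**Figure D1:**
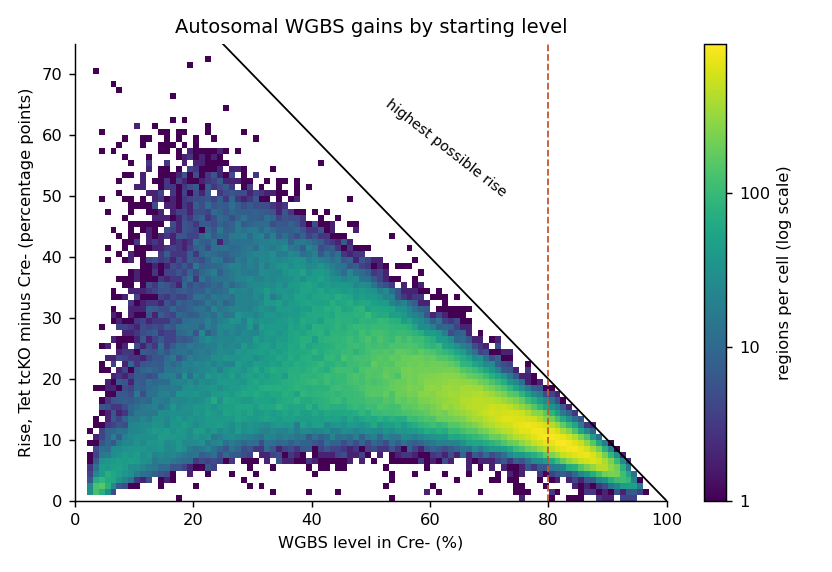
Number of autosomal WGBS gains (color, log scale) by level in Cre- (x axis, %) and by rise in Tet tcKO (y axis, percentage points), in cells of 1 by 1 point. The dashed line marks the 80% level, the diagonal the highest rise a region can make, and the regions right of the dashed line rose by a median of 8.43 points under that ceiling.

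The 5 regions just inside stood at 80.0001% to 80.0005% in Cre- and rose by 8.77 to 10.1 points, and the 5 just outside, at 79.9982% to 79.9997%, rose by 9.70 to 12.4 points. The 2 ranges overlapped, and the 3 largest of these rises were just outside.

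Side by side with gains that started lower, the room taken up was larger while the rise in points was smaller. The median share of unmodified CpGs taken up was 13% in the 8172 gains that started under 20%, 33.8% in the 24247 from 20% to 40%, 44.8% in the 48220 from 40% to 60% and 50.2% in the 75637 from 60% to 80%. Among the regions themselves it was 54.1% for the 18534 that started under 85%, 56.5% for the 11235 from 85% to 90%, and 57.0% for the 2406 from 90% up. The rise in points in the same 3 groups had medians of 9.50, 7.26 and 4.89.

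The regions were short, with few but closely spaced CpGs. Their median length was 238 bp, against 374 bp for gains from 60% to 80% and 381 bp for all autosomal gains, and they held a median of 6 CpGs, against 7 for gains from 60% to 80%, 8 from 40% to 60% and 9 in both classes below, with 8095 regions at 4 CpGs and 730 at 20 or more. CpG density had a median of 2.81 per 100 bp, against 2.11 for gains from 60% to 80%, 1.86 from 40% to 60% and 3.16 under 20%. The ratio of observed to expected CpGs followed the same course, with medians of 0.489, 0.381, 0.340 and 0.523. The class that started highest thus resembled in CpG density the class that started lowest more than the classes between. No test was made of these differences, and length, CpG number and level are linked through the authors' region calling.

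bACE-seq, run on DNA of the same extractions, gave a measurement that the choice had not used. A 5hmC loss in the bACE-seq list overlapped 26021 of the regions (80.9%), near the 81.7% of all autosomal gains, which include the regions. It was below the 87.2% of gains from 60% to 80% and the 84.6% from 40% to 60%. Gains from 20% to 40% had 73.0% and those under 20% had 43.0%. Among the regions the share rose with the number of CpGs, from 72.6% at 4 or 5 CpGs to 93.8% at 10 or more. The same shares for gains from 60% to 80% were 75.7% and 97.3%. Over the 26023 regions with any bACE-seq region, 5hmC stood at a median of 17.0% in Cre- retina, against 4.28% in Tet tcKO retina. The 5hmC level in Cre- lay between 10.1% and 27.1% in 80% of them and reached 53.4%. A fall in 5hmC was found in 26020 of the 26023, and a rise in 3. Of the 582432 autosomal regions in the bACE-seq list, 582238 were lower in Tet tcKO and 194 higher, so this direction was that of nearly the whole list. Each level here is the mean over whole bACE-seq regions, which enclosed 21368 of the WGBS regions entirely and so also covered CpGs outside them, and the bACE-seq list holds only regions that the authors called as changed.

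For the 23587 regions with bACE-seq regions over at least 50% of their bases, the 5hmC level was subtracted from the WGBS level to give an implied 5mC level. Its median went from 66.7% in Cre- to 88.2% in Tet tcKO, since the level of at least 80% that chose the regions counts both marks. The implied rise in 5mC had a median of 21.5 points, with 80% of regions between 14.8 and 30.1 points, where the WGBS rise of the same regions had a median of 8.35 points. The fall in 5hmC, with a median of 12.9 points, was larger than the WGBS rise in 20814 of them (88.2%), and the median ratio of WGBS rise to 5hmC fall was 0.638. This ratio was 1.007 for gains from 60% to 80%, 1.50 from 40% to 60%, 1.82 from 20% to 40% and 1.41 under 20%. The choice itself caps the WGBS rise of the regions at 20 points.

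The remaining 5hmC was a like share in every class. This was read in gains that met the bACE-seq coverage rule used for the implied 5mC level. In Tet tcKO a median of 25% of the Cre- 5hmC level was left at the regions, with 80% of regions between 17.8% and 32.5%. The medians of the other 4 classes ran from 23.5% to 25%. Over gains with any bACE-seq overlap, the 5hmC level was a median of 20.1% of the WGBS level in Cre- at the regions. It was 26.7%, 36.3%, 51.6% and 84.9% in the classes that started at 60% to 80%, 40% to 60%, 20% to 40% and under 20%. A bACE-seq region enclosed 66.4% of the regions but 8.17% of the gains under 20%, so the 84.9% also draws on CpGs outside those gains. Under the coverage rule, gains under 20% had median Cre- levels of 10.6% 5hmC and 15.3% by WGBS. Unmodified cytosine or 5mC that fails to convert adds to any bACE-seq level. The study estimated failed conversion with a spiked-in plasmid, and its part in the remaining share was not tested.

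**Figure D2:**
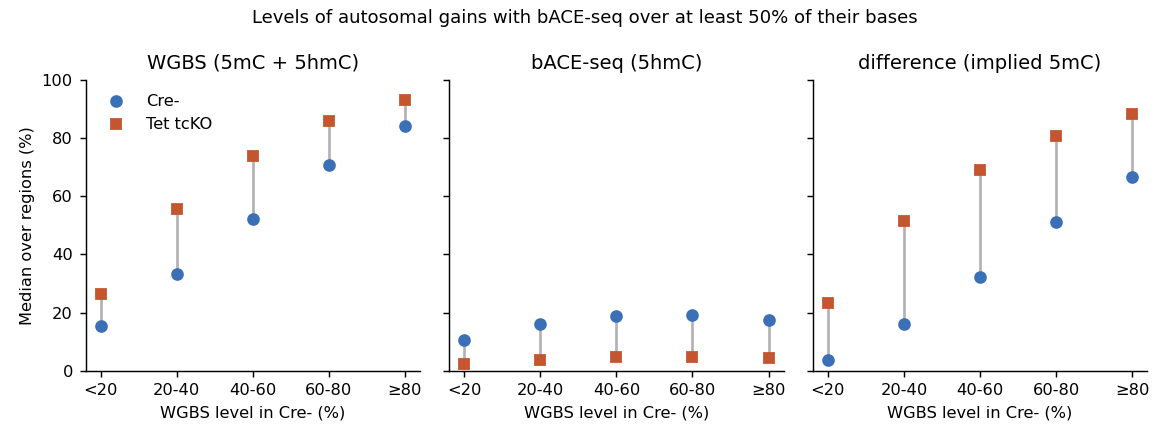
Median WGBS level, 5hmC level and their difference (implied 5mC), all in %, in Cre- (circles) and Tet tcKO (squares) for autosomal gains with bACE-seq over at least 50% of their bases, by WGBS level in Cre-. In the class at 80% or more, WGBS went from 84.01% to 92.9%, 5hmC from 17.3% to 4.37% and implied 5mC from 66.7% to 88.2%.

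Most of the regions lay inside genes and away from start sites. By their midpoints, 21234 (66%) were in gene bodies, 9069 (28.2%) intergenic and 1872 (5.82%) in promoters, defined as within 2 kb of a start site. Gains from 60% to 80% were in gene bodies in 60.8% and in promoters in 6.94%, and gains under 20% in 26.2% and 47.5%. Only 149 regions (0.463%) covered a start site, against 6.98% of gains under 20%. The median distance to the nearest start site was 23255 bp, and 14206 regions (44.2%) lay 10 to 50 kb from one. Along protein-coding genes of at least 5 kb, the first 10% of the gene held 8.64% of the midpoints and the last 10% held 12.1%, where all autosomal gains had 12.8% in the first and 9.80% in the last.

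Exons, and coding exons in particular, held a larger share of these regions than of the gains that started between 20% and 80%. The midpoint was in an exon in 3568 regions (11.1%) and in coding sequence in 2369 (7.36%). The share in coding sequence was 6.96% for gains under 20%, 2.61% from 20% to 40%, 2.14% from 40% to 60% and 3.10% from 60% to 80%. Within the regions it went from 5.57% for those that started under 85% to 9.38% for 85% to 90% and 11.8% from 90% up. The coding-exon regions held 4.17 CpGs per 100 bp (median), started at 85.7% and rose by a median of 6.85 points, against 2.64 CpGs, 84.1% and 8.60 points in introns. In Cre- they held 15.6% 5hmC, and 3.99% was left in Tet tcKO, where introns had 18.2% and 4.64% and intergenic regions 14.8% and 3.61%. A total of 725 regions met a common length and composition rule for CpG islands (at least 200 bp, 50% GC and an observed to expected ratio of 0.6), and of these 228 overlapped coding sequence and 10 a start site.

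**Figure D3:**
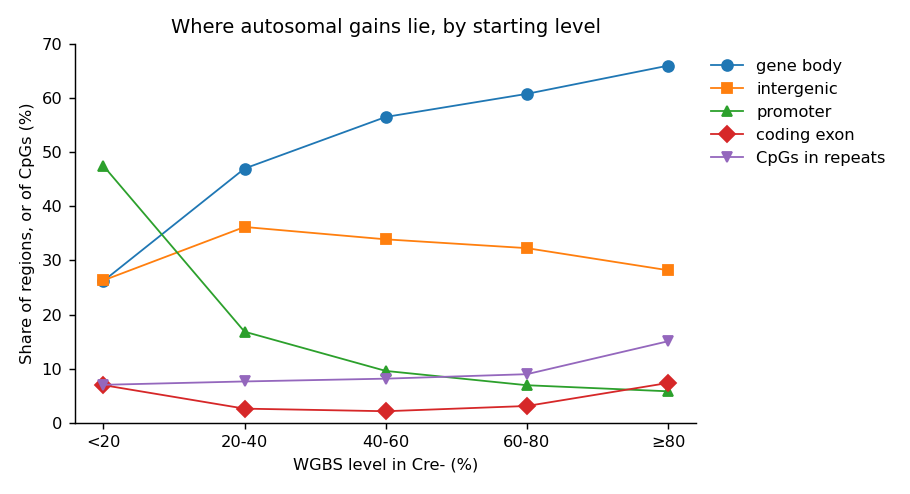
Share of autosomal gains (%) with the midpoint in a gene body, in intergenic DNA, in a promoter or in a coding exon, and share of CpGs in soft-masked repeats (%), by WGBS level in Cre- (%). Gene bodies rise to 66% and promoters fall to 5.82% in the class at 80% or more, where coding exons reach 7.36% and CpGs in repeats 15.1%.

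Repeats took a growing share toward the top of the range. Of the bases in the regions 17.5% were soft-masked, against 14.3% for gains from 60% to 80% and 33.5% of the determined autosomal bases, and of their CpGs 15.1% were soft-masked, against 8.98% and 24.6%. Regions that were at least 90% soft-masked numbered 510 of 18534 (2.75%) among those that started under 85%, 749 of 11235 (6.67%) from 85% to 90% and 752 of 2406 (31.3%) from 90% up. Over the 3 starting levels a bACE-seq loss overlapped 84.2%, 79.1% and 63.4% of the regions. It overlapped 40.8% of the 2011 repeat regions and 85.3% of the 17084 regions that were at most 10% soft-masked. Where both could be read, the repeat regions had 12.8% 5hmC in Cre- and 2.88% in Tet tcKO, against 16.7% and 4.23%. In the regions that were at most 10% soft-masked, the share with a bACE-seq loss went from 86.5% to 84.1% and 80.2% over the same levels, and the 5hmC level in Cre- from 17.3% to 16.1% and 14.0%. The share in coding sequence in this subset went from 7.73% to 14.1% and 24.9%.

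The 6152 regions without any bACE-seq region differed in several of these features from the 26023 with one. They were 30.8% soft-masked by bases against 14.9%, 47.8% intergenic against 23.5%, and held a median of 5 CpGs against 6. Their WGBS rise had a median of 8.73 points, against 8.38.

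Sequence words were counted in the 300 bp around each midpoint, on both strands. TAATCC, a word bound by the photoreceptor factors CRX and OTX2, was found in 3950 regions (12.3%), against 15.2% of all autosomal WGBS regions. AGGTCA, the core word of nuclear receptor sites, was in 17.7% against 19.6%, and CAGCTG, an E-box of bHLH factors, in 18.5% against 20.3%. CACGTG, another E-box with a CpG in it, was in 7.25% against 6.67%, GGGCGG, the GC box, in 8.14% against 7.80%, and CCGGAA, the core word of ETS factors, in 6.29% against 5.32%. The words without a CpG were thus less frequent than in all regions, and those with a CpG more frequent, in windows whose CpG density also differed. Of the 241187 CpGs in the regions, 23.7% had A or T on both sides and 26.3% had C or G on both sides, against 27.6% and 24.4% of all autosomal CpGs and 25.5% and 24.0% in gains from 60% to 80%.

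The regions were scattered over all 19 autosomes, from 13.6 per 10000 CpGs on chromosome 3 to 18.2 on chromosome 19, and held 1.18% of autosomal CpGs. Most had a gain of lower starting level as their nearest neighbor. Such gains were also most of the autosomal list, of whose 190763 regions 188451 were gains and 32175 the regions themselves. The nearest WGBS region was a gain from under 80% in 24587 (76.4%), another of the regions in 7276 (22.6%) and a loss in 312 (0.970%), and the median gap to it was 2095 bp.

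Named regions show these levels one by one. The Kank2 region stood at 86.5% by WGBS in Cre- and 93.5% in Tet tcKO, while its 5hmC level went from 15.6% to 4.24%. The region over Sec14l1, which encodes a lipid-binding protein, spanned 73 CpGs at chr11:117138979-117141855 and went from 80.4% to 91.8%, with 5hmC from 25.9% to 6.77%. Among the 10 regions with the largest area statistic, 8 overlapped coding sequence. The share was 13.1% over all 32175 regions and 24.4% over those of 10 or more CpGs. As the statistic is summed over CpGs, this ranking favors regions with many CpGs.

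Of those 8, Soga1 at chr2:157039957-157040722 went from 82.9% to 91.2% over 57 CpGs. Ahdc1 at chr4:133061692-133062727, a gene of a DNA-binding protein, went from 82.7% to 92.3%, and Ptpru at chr4:131818271-131819666, a receptor tyrosine phosphatase gene, from 82.6% to 89.4%. Abhd8 at chr8:71461322-71462024 went from 82.3% to 88.7% with 5hmC from 25.6% to 6.36%. The 2 others overlapped UTR sequence as well: a region shared by Gins2, of the DNA replication complex GINS, Gse1 and the gene model Gm20388 at chr8:120577553-120578713 (85.1% to 93.1%), and one shared by Galnt4, a glycosyltransferase gene, and Poc1b, a centriole and photoreceptor cilium gene, at chr10:99109513-99110356 (80.9% to 91.7%). The region in an intron of Zfp423, a zinc finger transcription factor gene, at chr8:87741093-87742598 went from 80.8% to 91.3%, with 5hmC from 19.3% to 4.93%.

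The remaining region of the 10 went the other way in 5hmC. It was intergenic, at chr8:109414033-109414523, 79749 bp from the nearest start site, of Pmfbp1, and went from 85.1% to 94.9% by WGBS over 37 CpGs, while its 5hmC level went from 13.6% to 23.3%. A bACE-seq region of 35 CpGs inside it, chr8:109414182-109414523, went from 13.5% to 23.4%, and a second bACE-seq region that touched it by 1 base fell from 16.7% to 2.39%. The other 2 of the 3 regions with a net 5hmC rise were named after their values were seen. One, at chr9:64110389-64110645 near Lctl, was covered over 23.7% of its bases by a bACE-seq region that went from 7.61% to 15.5%, and one, at chr9:70336596-70336822 within Myo1e, over 8.37% by one that went from 3.17% to 12.7%.

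Among regions with at least 5 CpGs and bACE-seq over at least 50% of their bases, the 5 with the highest 5hmC in Cre- all lay in introns. In an intron of Mbnl2, which encodes a splicing regulator, chr14:120339155-120339484 went from 53.4% to 11.1% 5hmC, while WGBS went from 85.1% to 94.5%. The implied 5mC level there rose by 51.7 points, the largest value among the same regions. At the printed Rtn3 region 5hmC went from 47.5% to 11.2% and WGBS from 85.4% to 95.9%, and at the Nptn region from 47.0% to 14.96% and from 86.7% to 94.1%.

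Dyrk1a, a protein kinase gene, and Ndfip2, which encodes an adaptor of ubiquitin ligases, followed with 5hmC from 47.0% to 13.6% and from 46.7% to 12.5%. By implied 5mC, March7, a ubiquitin ligase gene (50.1 points), and Rab2a, which encodes a GTPase of vesicle transport (49.9 points), were among the 5 largest with Mbnl2. The WGBS rise alone was 9.39 points at Mbnl2, 11.2 points at March7 and 15.5 points at Rab2a.

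**Figure D4:**
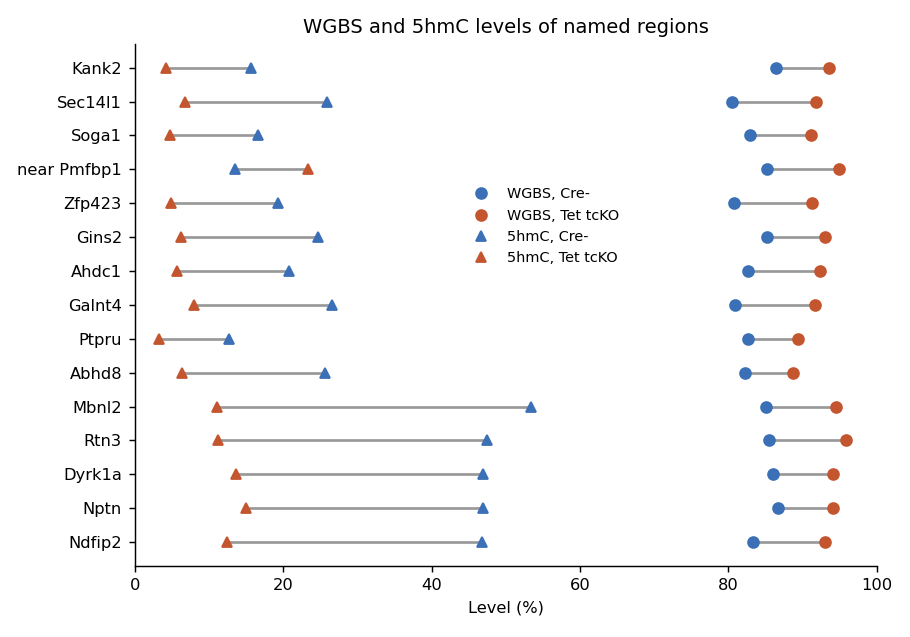
WGBS level (circles) and 5hmC level (triangles) in %, in Cre- (blue) and Tet tcKO (red), of the 10 regions with the largest area statistic (top) and of the 5 with the highest 5hmC in Cre- among regions of at least 5 CpGs with bACE-seq over at least 50% of their bases (bottom). WGBS lies at or above 80% in every region and 5hmC falls in all but the region near Pmfbp1, where it rises from 13.6% to 23.3%.

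The largest WGBS rises and the longest regions came largely from repeats. The largest rise, from 80.1% to 98.5%, was at chr7:78092975-78093279 near 4921513I08Rik over 4 CpGs, and only the Pan3 region of the first 5, in an intron of that poly(A) nuclease subunit gene at chr5:147446324-147446740, had a bACE-seq region (5hmC from 30.9% to 8.09%, WGBS from 80.04% to 97.5%). The 5 longest regions were all fully soft-masked. The longest, within Mc2r on chromosome 18, ran over 4754 bp and listed 7 CpGs where the assembly holds 108, and the others, near Hsbp1, near Gm32647, and within Ttn and Filip1, listed 5 to 10 CpGs where it holds 39 to 74. In 31932 of the 32175 regions (99.2%) the listed and assembly CpG numbers were equal.

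Of 20780 autosomal protein-coding genes, 7522 (36.2%) held at least 1 region. The share rose with gene length, from 5.61% in the shortest 20% of genes to 79.4% in the longest 20%, while the number per 100 kb ran from 2.05 to 2.44 over the 5 length classes. The most regions lay in Gm20388, a readthrough model of 4435 kb that covers many other genes (172 regions), and Fgfr2, a fibroblast growth factor receptor gene whose longest model here runs over 2961 kb and over other genes, Ctbp2 among them, so that their regions are counted with it (90 regions). Below these came Wwox, an oxidoreductase gene (59), Prkce, a protein kinase C gene (50), Zfhx3, a transcription factor gene (49), Auts2 (44), Trio, a guanine nucleotide exchange factor gene (43), Foxn3, a forkhead factor gene (42), Prkca (41) and Gpc6, a glypican gene (35). Per 100 kb, among genes of at least 50 kb, Fam196a (17.7), Kcnab2, a potassium channel subunit gene (17.2), Tnrc18 (17.2), Gtf2i, a general transcription factor gene (16.9) and Tgfb2, which encodes a growth factor (16.8), came first.

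Lists of retinal genes had a range of 5hmC levels in Cre-, with the highest medians in the photoreceptor precursor and rod lists. Of 20 rod photoreceptor genes, 12 (60%) held 32 regions, against 36.2% of all protein-coding genes, with a median gene length of 19.4 kb against 17.6 kb. Per 100 kb the rod list held 3.11 regions against 2.14, and 17.8 gains of any starting level against 11.4. The 31 rod regions with a bACE-seq region drew on 26 different bACE-seq regions, so some shared a level. Their 5hmC level in Cre- was between 14.2% and 39.1% with a median of 28.8%, and in Tet tcKO the median was 6.65%. Over all regions in protein-coding genes the medians were 17.9% and 4.58%. The WGBS rise in the rod list had a median of 9.04 points against 8.40.

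Esrrb, an orphan nuclear receptor gene active in rods, held 9 regions, all intronic, at 80.04% to 86.5% in Cre- and 90.5% to 96.7% in Tet tcKO, with 5hmC at 24.6% to 33.4% and 5.15% to 7.05%. Slc24a1, the rod sodium, calcium and potassium exchanger gene, held 4, at 81.4% to 85.7% and 90.5% to 94.6%. In both genes the ranges of the 2 genotypes did not overlap in either assay. This was not particular to rod genes, since Dkk3 and Kdr of other lists also had separate ranges in both assays. In Tet3 the WGBS ranges overlapped. A higher WGBS level is part of the choice, and nearly the whole bACE-seq list falls. How many other genes had separate ranges was not counted. Sag, the rod arrestin gene, held 2, whose 5hmC levels of 32.2% and 34.2% in Cre- stood against 7.53% and 7.71% in Tet tcKO, and Pde6b, a rod phosphodiesterase subunit gene, held 1 that went from 39.1% to 7.72% 5hmC and from 80.1% to 90.3% by WGBS. Gnat1, Nrl, Nr2e3, Prph2, Rom1, Pde6g, Gngt1 and Samd11 held none from 80% up, but each held 1 to 3 gains that started lower, with 3 each in Nr2e3 and Samd11 and 2 in Nrl.

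In the photoreceptor precursor list 3 of 9 genes (33.3%, against 36.2% of all) held 12 regions, or 3.13 per 100 kb against 2.14. Gains of any starting level were also denser there, at 28.9 per 100 kb against 11.4 over all protein-coding genes. The 12 regions had a median 5hmC level of 33.8% in Cre- (23.2% to 39.9%). Prdm1, whose product favors photoreceptor over bipolar fate, and Rorb, a nuclear receptor gene upstream of rod genes, held 5 each, and Mef2d, a factor of photoreceptor gene expression, held 2. The CpG-weighted mean over Prdm1 went from 86.0% to 93.4% by WGBS and from 33.3% to 8.11% in 5hmC, and over Rorb from 85.2% to 93.6% and from 32.7% to 8.80%. Crx, Otx2 and Neurod1 held none from 80% up, and 3, 8 and 2 gains that started lower.

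In the cone list 5 of 13 genes (38.5%, against 36.2% of all) held 9 regions, or 1.03 per 100 kb against 2.14, with a median of 18.1% 5hmC in Cre-, near the 17.9% over all protein-coding genes. Per 100 kb the cone list held 7.92 gains of any starting level, against 11.4. Pde6c, the cone phosphodiesterase gene, went from 86.1% to 92.4% by WGBS and from 15.6% to 3.21% in 5hmC over 3 regions, and Thrb, the thyroid hormone receptor gene that directs M-opsin cone identity, from 85.1% to 95.9% and from 19.3% to 4.95% over 3. The ribbon synapse list, of the photoreceptor and bipolar terminals, had 11 of 16 genes (68.8%) with 43 regions and a median of 25.4% 5hmC in Cre-. Its genes were long, with a median of 80.6 kb against 17.6 kb, and held 1.86 regions per 100 kb against 2.14 over all protein-coding genes. The list held 11.6 gains of any starting level per 100 kb, against 11.4. Its Ctbp2, whose RIBEYE product builds the ribbon, held 13 regions with 5hmC from 25.4% to 40.9% in Cre- and from 6.98% to 11.9% in Tet tcKO. Pclo, an active zone scaffold gene, and Rims2 followed with 5 each, at CpG-weighted 5hmC of 17.8% and 21.7% in Cre-.

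Lists of other retinal cells had lower 5hmC medians than the rod list. The bipolar list (6 of 15 genes, 55 regions, 41 of them in Prkca, the rod bipolar marker) had a median of 19.4%, and Prkca went from 85.1% to 93.8% by WGBS. Trpm1, the ON-bipolar channel gene, and Grik1, a kainate receptor gene, held 5 each. The Muller glia list (5 of 14 genes, 12 regions) had 21.2%. There Dkk3 held 4 and Glul, the glutamine synthetase gene, 3, the latter at 88.9% in Cre- and 94.2% in Tet tcKO.

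The horizontal list (2 of 6 genes, 3 regions, 2 of them in Onecut2) had a median of 22.1%, the amacrine list (6 of 14, 8 regions, 3 in Prox1) 16.7%, and the ganglion list (3 of 13, 33 regions, 12 each in Ebf1 and Ebf3) 14.8%. The endothelial list (6 of 13, 19 regions, 7 in Flt1, a VEGF receptor gene, and 4 in Kdr) had 16.4%, and the microglia list (5 of 15, 12 regions, 7 in Cx3cr1, the fractalkine receptor gene, and 2 in Itgam) 12.7%, with a range of 9.34% to 15.7%. The microglial range rests on 10 regions with a bACE-seq region, 6 of them in Cx3cr1, and it reached above the lowest rod level, 14.2%. The amacrine list ran from 12.7% to 18.3% and the ganglion list from 9.14% to 32.9%. The Cx3cr1 model used here runs over 168 kb, against a median gene length of 10.7 kb in the microglia list. Whether its 7 regions also lie in other genes was not examined. Per 100 kb, the bipolar, Muller glia, horizontal, amacrine and ganglion lists held 4.67, 3.72, 1.61, 1.73 and 4.15 regions, against 2.14 over all genes. The endothelial list held 2.27 and the microglia list 2.34. Gains of any starting level, in the same order, were 18.2, 26.0, 17.1, 19.9 and 20.5 per 100 kb. In the endothelial and microglia lists they were 12.9 and 11.3, against 11.4 over all genes. Genes with a region were 40% of bipolar, 35.7% of Muller glia, 33.3% of horizontal, 42.9% of amacrine and 23.1% of ganglion genes. In the endothelial and microglia lists they were 46.2% and 33.3%, against 36.2% of all protein-coding genes. A higher WGBS level in Tet tcKO is part of the choice. Which cells of the whole retina these levels come from was not tested.

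**Figure D5:**
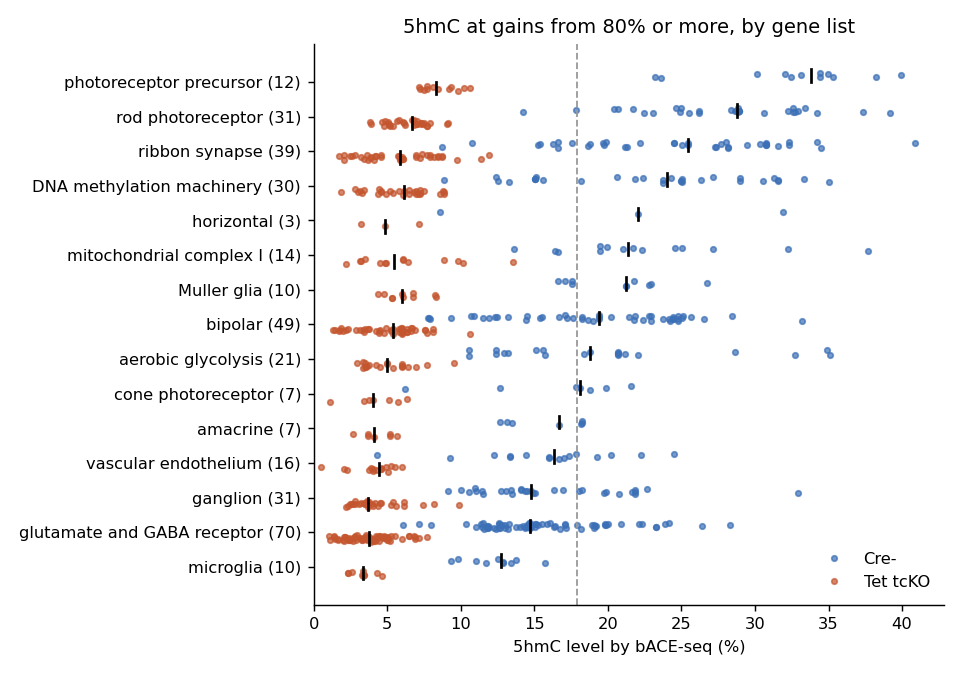
5hmC level by bACE-seq (%) at each region in the genes of 15 lists, in Cre- (blue) and Tet tcKO (red), with black bars at the medians and the number of regions with a bACE-seq region in parentheses, of which some share a bACE-seq region and its level (39 over 33 in the ribbon synapse list); the dashed line is the Cre- median over all protein-coding genes, 17.9%. Photoreceptor precursor and rod genes stand highest in Cre- (medians 33.8% and 28.8%) and microglial genes lowest (12.7%), while the Tet tcKO medians lie between 3.33% and 8.28%. Of the 10 regions of the microglia list, 6 lie in the 168 kb Cx3cr1 model, which was not checked for other genes.

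Of the glutamate and GABA receptor genes 25 of 33 (75.8%, against 36.2% of all) held 102 regions. The genes had a median length of 209 kb and held 1.148 regions per 100 kb, against 2.14 over all protein-coding genes. Gains of any starting level were 6.42 per 100 kb, against 11.4. Grin2b, an NMDA receptor subunit gene, held 20 of the 102 regions, of which 14 overlapped a 5hmC loss, and Grik4, a kainate receptor gene, 13. The median 5hmC level of the list in Cre- was 14.7%. The list of the DNA methylation machinery had 11 of 16 genes (68.8%) with 31 regions and a median of 24.0%. Per 100 kb it held 21.0 gains of any starting level, against 11.4 over all protein-coding genes, and 4.59 of the regions. Tet3 itself held 7, at 81.1% to 91.6% in Cre- and 90.7% to 96.6% in Tet tcKO, with 5hmC at 21.9% to 35.1% and 6.13% to 8.83%, Tet1 held 4, Tet2 held 1, and Dnmt3a, a de novo methyltransferase gene, held 5. The recombined loxp exons were not separated from the rest of the Tet genes here.

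Among genes of energy metabolism, 9 of 33 mitochondrial complex I genes (27.3%, against 36.2% of all) held 15 regions, with 4 in Ndufa10 and 3 in Ndufs4. The list had a median of 21.4% 5hmC in Cre- and 3.30 regions per 100 kb, against 2.14 over all protein-coding genes. Its gains of any starting level were 13.8 per 100 kb, against 11.4. Of 18 aerobic glycolysis genes, 12 (66.7%) held 22 regions, or 4.63 per 100 kb, with a median of 18.8% 5hmC in Cre-. Gains of any starting level were 28.0 per 100 kb in these genes, against 11.4 over all protein-coding genes. Of the 22 regions, 6 were in Hk1, the hexokinase gene, and 4 in Slc2a1, the glucose transporter gene, all 4 of the latter over coding sequence. Slc2a1 went from 82.3% to 90.9% by WGBS and from 20.7% to 6.02% in 5hmC.

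Autosomal regions that started as high but fell in Tet tcKO were much fewer, at 1500. They started at a median of 93.3% and fell by 8.97 points, 800 of them were at least 90% soft-masked, and a 5hmC loss overlapped 24.4%, against 80.9% of the regions that rose. Their CpG density was 4.31 per 100 bp. In the 254 with bACE-seq over at least 50% of their bases, the implied 5mC level stood at 79.8% in Cre- and 79.1% in Tet tcKO.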

How the data were processed

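DNA of postnatal day 21 whole retinas was profiled by WGBS and bACE-seq (3 libraries per genotype and assay, 12 in all). Per the study's methods and the submitters' processing notes, reads were trimmed with Trim Galore 0.4.4, aligned to mm10 with Bismark 0.18.2, filtered with SAMtools 1.15.1, freed of duplicates with Picard and GATK 4.1.3, and CpGs were called with MethylDackel 0.6.1. The authors then called differentially methylated regions with DSS with smoothing. The deposited lists give 1 level per genotype and region as a fraction from 0 to 1 and an area statistic, a score summed over CpGs. The difference and the area statistic are the authors' own comparison, and were used only for a check of sign, to rank regions for naming and for 1 alternative. The authors' p-value threshold and smoothing decide which regions exist, and smoothing draws neighboring CpGs toward each other.

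Levels were multiplied by 100, and all values were computed with Python 3.11.15, pandas 2.3.3 and numpy 2.4.6. Overlap needed 1 base. The 5hmC level of a WGBS region is the mean of overlapping bACE-seq regions weighted by shared bases. Genes (protein-coding and lncRNA) came from GENCODE M21 basic, sequence and soft-masking from GRCm38.p6, on which the first and last base of each region proved to be a CpG cytosine. The overlap and selection code was tested on simulated data. The regions and gene lists were chosen with earlier results of these data known. Named regions were the 10 with the largest area statistic, the 5 with the largest rise, the 5 longest, the 5 with most 5hmC in Cre- and the 5 with the largest implied 5mC rise (at least 5 CpGs and 50% coverage), and named genes the 10 with most regions, the 5 densest of at least 50 kb and the first 2 of each list. Some regions this rule names are not reported here, and some further list genes were named after their values were seen. No test was made, since only group means are held, and read depth was not analysed here.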

Additional observations from a re-analysis of the deposited data

How the results depend on the processing

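No paired analysis was possible because the lists give 1 mean per genotype, and for the same reason no library could be left out, so how far any value depends on 1 library is not known. The number of regions was 52856, 13641 and 2406 at a Cre- level of at least 75%, 85% and 90%, 6727 with at least 10 CpGs, 7766 with a rise of at least 10 points, 9606 where the area statistic divided by CpG number passed p of 0.001 (two-sided), and 32557 with chromosomes X and Y. The median rise was 9.69, 6.92 and 4.89 points at those 3 levels, 8.15 with at least 10 CpGs and 8.34 weighted by CpGs, against 8.43. The share overlapping a 5hmC loss, 80.9%, became 73.3% where at least 50% of the region had to overlap, 89.3% with at least 10 CpGs in both lists, and 58.8% with 5hmC losses of at least 10 points. The median 5hmC levels became 17.3% in Cre- and 4.37% in Tet tcKO with 50% overlap. The promoter share was 2.67% and 15.3% with windows of 1 kb and 5 kb, and the gene body share 68.5%, 58.3% and, by base pairs, 68.4%. Genes holding a region made up 42.8% with 5 kb on each side. Soft-masked bases made up 18.7% in 300 bp around the midpoint. All 6 sequence words were less frequent in 200 bp windows, which lie inside the 300 bp windows and so cannot hold more. Of 33 alternative values, the 6 words included, 4 stayed close to the main value, meaning within 1.5 times for a count, within the exact 95% binomial interval for a share and within the 95% interval of the median from binomial ranks for a median. These intervals treat regions as independent and are narrow at this number of regions. A small shift, such as 8.34 against 8.43 points, thus falls outside them. WGBS and bACE-seq regions were called separately, so absence from the bACE-seq list is not absence of 5hmC, and the depth behind each level was not analysed here.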

Other observations

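On the sex chromosomes, which the choice of regions left out, 353 regions on X and 29 on Y started at 80% or more in Cre- and were higher in Tet tcKO. On X they went from a median of 85% to 94.0%, and a 5hmC loss overlapped 32.9% of them, against 80.9% on the autosomes. Where bACE-seq regions overlapped them, the median 5hmC level on X was 12.4% in Cre- and 2.61% in Tet tcKO. Of the 353, 151 were at least 90% soft-masked, against 2011 of 32175 on the autosomes. The sex of the animals behind each genotype mean was not analysed here.

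Large sensory receptor families held few regions. Of 1127 autosomal genes named Olfr, the olfactory receptors, 14 (1.24%) held 15 regions, and of 328 named Vmn, the vomeronasal receptors, 4 (1.22%) held 4, with 0.197 and 0.0761 regions per 100 kb against 2.14 over all protein-coding genes. They held 72 and 16 autosomal gains of any starting level. These families were chosen after values were seen.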
